A study of Mus musculus with 9 samples.

Results

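The comparison described here set the hippocampus of hAPP-J20 mice (Tg) at 15 weeks, the stage that the series calls pre-plaque, against that of non-transgenic mice (nTg). Its members were chosen by the sample titles and took in 6 of the 9 RNA sequencing libraries of the series: 3 Tg libraries of 15 weeks (replicates 1 to 3) and all 3 nTg libraries. Of the nTg libraries, replicates 1 and 3 are labelled 24 weeks and replicate 2 is labelled 15 weeks, so only 1 control had the age of the Tg group. The remaining 3 libraries, Tg at 24 weeks, served to show where the 2 ages of Tg differed. Both groups were whole hippocampus, and the labels give the genotype as hAPP-J20 for Tg, with no treatment, no sex and no statement that each library came from its own animal. The replicates are called biological in the labels, and p-values reflect how these libraries vary, which may in part be technical. Each library's batch label is its age, and the effects of batch and age cannot be told apart.

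hAPP-J20 mice carry a human amyloid precursor protein gene with familial Alzheimer mutations, driven mainly in neurons by the PDGF-B promoter, and release soluble amyloid-β long before plaques form. Neuronal activity in the hippocampus switches on immediate early genes such as Fos, Junb, Nr4a1 and Arc through CREB and other factors bound at their promoters and enhancers. Their RNA is short-lived and follows recent firing. Myelin is made by oligodendrocytes, which mature under the transcription factors Sox10, Nkx6-2 and Myrf and then express Opalin, Mbp and the enzymes of myelin lipids.

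Total counts were 17444752, 18880685 and 21529266 in the Tg libraries and 16110279, 20126802 and 16089966 in the nTg libraries. Normalised levels are given in CPM, counts scaled to the size of the library, and libraries are named in the order of replicates 1, 2 and 3, so that the second nTg value is always the 15-week control. One control stood apart before any gene was tested: on the first principal component (41.0% of variance) nTg replicate 1 lay at −52.1, against −3.04 to 25.0 for the other 5 libraries. That library also held 7.39 CPM of the female-specific Xist together with 39.2 CPM of the Y-linked Ddx3y. Among the other 5, Tg replicates 1 and 3 and nTg replicate 3 had Xist at 48.7 to 116 CPM with Ddx3y at 0 counts. Tg replicate 2 and nTg replicate 2 had Ddx3y above 52 CPM. Xist and Y-linked RNA thus each occurred in both groups, but not evenly. The 15-week control held Y-linked RNA where Tg replicates 1 and 3 held Xist, and the part of sex in differences from that control was not tested. Because nTg replicate 1 stood apart, the difference without it is given for the leading genes and for each printed gene whose sign its removal turned, or whose difference of 0.2 or more its removal moved by over 1.5 times. Of markers for the labelled tissue, all 16 of CA1 and CA3 pyramidal cells and all 18 of dentate granule cells were detected. Their summed levels were 1368, 1441 and 1472 CPM and 1061, 1101 and 1010.3 CPM in the Tg libraries. Detection alone does not show how cleanly the hippocampus was dissected, since choroid plexus and neocortex markers were detected too.

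The transgene itself could not serve as a check. Reads of the human gene have no row of their own in the mouse table, and mouse App stood at 1454, 1532 and 1502 CPM in Tg and 1031, 1520.0 and 1474 CPM in nTg, a log2 difference of 0.16 ± 0.15 (SE) that was 0.0074 without nTg replicate 1. Zbtb20, a repressor needed for CA1 identity and known as the site where the J20 transgene is inserted, stood at 207, 207 and 163 CPM in Tg and 247, 343 and 345 CPM in nTg (chromosome 16, 42875881 to 43642602, GRCm38). The 3 Tg values lay below all 3 controls, with a log2 difference of −0.70 ± 0.15 (edgeR adjusted p = 0.397), −0.83 against the 15-week control and −0.83 without nTg replicate 1. Zbtb20 overlaps other genes, including 1 on the other strand, and the strand setting of the counting is not given in the sources used here.

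No gene passed the threshold of 0.05 after Benjamini-Hochberg adjustment in edgeR's quasi-likelihood test, 0 of 16803 (0%). The lowest adjusted p was 0.246. At an unadjusted p under 0.05 there were 933 genes (5.55%), and 594 of them had lower levels in Tg (3.54% of genes tested) and 339 higher levels (2.02%). The groups did not overlap, with every Tg library below every control, in 1010 genes (6.01%), and with every Tg library above in 763 (4.54%). Over all genes 50.7% of differences were negative and 49.3% positive, and their median was −0.0036 on the log2 scale. The typical standard error of a gene was 0.163. On data simulated from these libraries the test recovered 64% of genes changed by 1 on the log2 scale and 98% of those changed by 2. The simulation changed 100 genes of each size, all at 1 CPM or more, and drew each gene independently with no library set apart. It therefore does not give the recovery in the real libraries, and smaller changes were not simulated. Other tests on the same libraries made calls: DESeq2 called 23 genes (4 higher, 19 lower), limma voom with quality weights 9, and edgeR without a filter on low counts 152, while limma on TPM called 0. Against the 15-week control alone edgeR called 0, with 350 genes at an unadjusted p under 0.05.

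**Figure D1:**
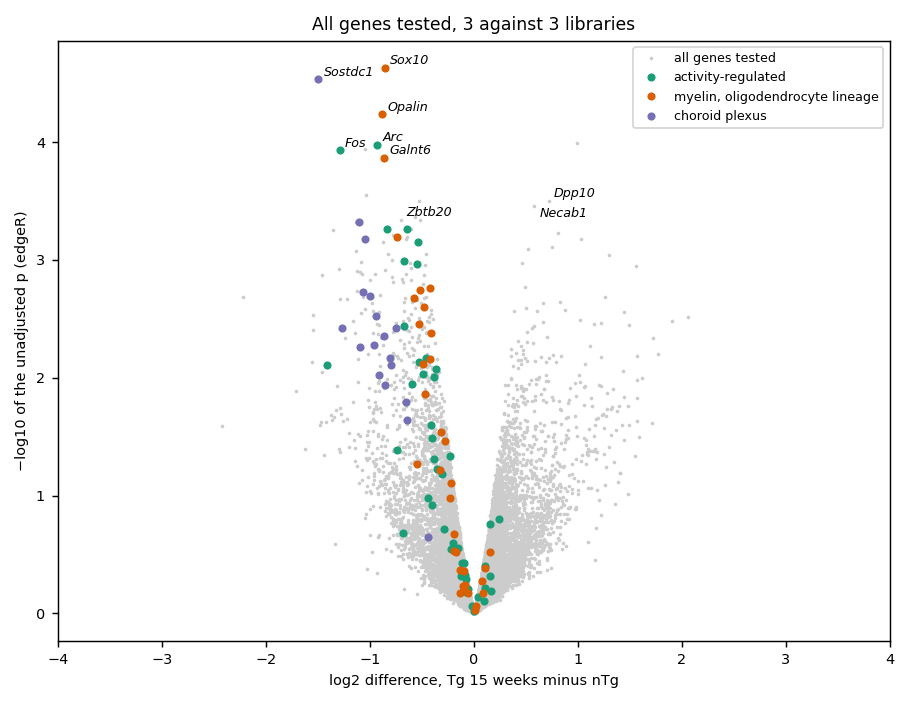
Log2 difference between Tg at 15 weeks and nTg (horizontal axis) against −log10 of the unadjusted edgeR p (vertical axis), 1 point per gene tested, with activity-regulated, myelin and oligodendrocyte, and choroid plexus genes in colour (1 gene lies outside the plotted range of −4 to 4). The coloured genes of smallest p lie on the left, at lower levels in Tg, and Dpp10 and Necab1 are marked on the right. None of the points passed the adjusted threshold.

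Most immediate early transcription factors had lower levels in Tg, though none passed the adjusted threshold. Of 20 activity-regulated transcription factors, all tested, 18 had a negative difference and 8 an unadjusted p under 0.05, all lower, and in 7 every Tg library lay below every control. The list's median was −0.38, −0.51 against the 15-week control and −0.35 without nTg replicate 1. The counts of 18, 8 and 7 of 20 stand beside 50.7%, 3.54% and 6.01% over all genes. In bulk tissue, fewer cells of a type and less RNA per cell cannot be told apart, here and for the groups that follow.

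Promoter windows are printed for the 3 of these factors with the smallest unadjusted p among those reported. The core of the cyclic AMP response element (CRE), at which CREB acts, can be read in them. Each runs from 250 bases before to 50 bases after the RefSeq start of the gene (GRCm38.p6), 5′ to 3′ on the gene's strand, with the CRE core TGACG, or CGTCA where it lies on the other strand, in capitals. Fos lies at chr12:85473640-85473939 (plus strand), Junb at chr8:84978699-84978998 (minus strand) and Nr4a1 at chr15:101266596-101266895 (plus strand).
Fos: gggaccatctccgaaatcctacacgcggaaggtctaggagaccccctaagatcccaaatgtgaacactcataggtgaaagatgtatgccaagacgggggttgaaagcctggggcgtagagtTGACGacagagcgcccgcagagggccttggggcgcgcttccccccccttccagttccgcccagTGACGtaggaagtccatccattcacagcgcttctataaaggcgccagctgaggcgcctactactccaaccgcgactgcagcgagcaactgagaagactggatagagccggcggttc
Junb: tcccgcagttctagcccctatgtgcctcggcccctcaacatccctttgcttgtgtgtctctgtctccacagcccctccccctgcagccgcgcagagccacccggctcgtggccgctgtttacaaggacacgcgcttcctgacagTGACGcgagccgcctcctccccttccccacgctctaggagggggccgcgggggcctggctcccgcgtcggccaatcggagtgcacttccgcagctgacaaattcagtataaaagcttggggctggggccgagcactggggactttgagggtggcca
Nr4a1: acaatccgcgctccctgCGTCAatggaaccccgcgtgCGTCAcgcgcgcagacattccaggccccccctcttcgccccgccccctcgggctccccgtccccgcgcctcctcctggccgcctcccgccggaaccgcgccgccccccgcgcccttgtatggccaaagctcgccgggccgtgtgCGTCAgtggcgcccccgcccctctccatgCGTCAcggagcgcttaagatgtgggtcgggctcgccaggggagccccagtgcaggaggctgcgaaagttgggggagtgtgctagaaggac
The windows hold 2 cores in Fos, 1 in Junb and 4 in Nr4a1. Searched on both strands in any RefSeq window of a gene, the core occurred in 12 of 16 transcription factors (75%) and 12 of 18 effectors (66.7%) with a window, and in 3990 of 11859 genes tested (33.6%). The whole element TGACGTCA, which contains the core, occurred in 1 of 16 (6.25%), 4 of 18 (22.2%) and 3.42% of genes tested. Median GC content of the windows was 63% for the transcription factors, 57.3% for the effectors and 60.3% for the genes tested. A match describes the letters of the window and is not a measured binding site.

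Fos, a subunit of the AP-1 factor (GRCm38, chromosome 12, 85473890 to 85477273), was measured at 7.35, 3.92 and 7.65 CPM in Tg and 17.6, 16.8 and 11.9 CPM in nTg (means 6.31 ± 2.07 and 15.4 ± 3.06 CPM, SD, n = 3 each). Every Tg library was below every control, and the lowest control, replicate 3, was the one nearest to the Tg range. The log2 difference was −1.29 ± 0.24 (edgeR adjusted p = 0.281), −1.40 against the 15-week control and −1.18 without nTg replicate 1. Fos passed the threshold in 4 of 15 alternative settings and not in the others. These were DESeq2, voom, edgeR without the filter on low counts, and edgeR without nTg replicate 3. Junb, another AP-1 subunit, stood at 46.4, 36.9 and 47.4 CPM in Tg and 77.1, 69.3 and 56.9 CPM in nTg, with no overlap and a log2 difference of −0.64 ± 0.14 (adjusted p = 0.397). Its start overlaps a gene on the other strand, Prdx2. Nr4a1, a nuclear receptor induced by activity, stood at 42.3, 32.3 and 36.8 CPM in Tg against 68.5, 63.6 and 45.0 CPM, again with each Tg library below each control and a difference of −0.67 ± 0.16 (−0.54 without nTg replicate 1).

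Other members without overlap, named after their values were seen, were Egr1 (−0.55 ± 0.13), Egr4 (−0.67 ± 0.19, −0.44 without nTg replicate 1), Nr4a3 (−0.46 ± 0.14) and Jund (−0.23 ± 0.10). Egr1, a zinc finger factor used as a marker of recent firing, had 80.0, 79.8 and 93.7 CPM in Tg and 142, 125 and 104 CPM in nTg. Not every factor had lower levels. Egr3 stood at 80.0, 81.8 and 80.4 CPM in Tg and 85.5, 81.4 and 72.5 CPM in nTg, a difference of 0.02 ± 0.11, and Npas4, a neuron-specific factor that responds to calcium entry, stood at 7.81, 5.42 and 11.4 CPM against 10.3, 9.21 and 13.3 CPM with overlapping groups (−0.40 ± 0.24). Egr2 had a difference of −1.41 ± 0.45, and −0.90 without nTg replicate 1, but only 0.591 to 1.10 CPM in Tg and overlapped the controls.

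Among 28 activity-regulated effectors, 20 had a negative and 8 a positive difference. At an unadjusted p under 0.05 there were 12, all lower, and 9 lay wholly below the controls and 1 wholly above. Over all genes the negative share was 50.7%, the share lower at this p was 3.54%, and 6.01% lay wholly below and 4.54% wholly above. The list median was −0.14 (−0.20 against the 15-week control) and ranged from −0.21 without Tg replicate 3 to −0.11 without Tg replicate 1. Arc, which moves AMPA receptors off synapses (chromosome 15, 74669083 to 74672570, GRCm38), led the effectors at 45.0, 44.1 and 47.2 CPM in Tg and 108, 91.7 and 60.8 CPM in nTg (means 45.4 ± 1.57 and 86.7 ± 23.8 CPM, SD, n = 3 each). The Tg libraries agreed closely with one another, while the controls spread widely with replicate 1 highest. The difference was −0.93 ± 0.17 (edgeR adjusted p = 0.281), −1.0 against the 15-week control and −0.74 without nTg replicate 1. Without nTg replicate 3 both Arc (−1.13, adjusted p = 0.00246) and Fos (−1.44, adjusted p = 0.0489) passed the threshold. Arc passed it in 4 of all 15 alternatives, the same settings as for Fos, and not in the others.

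Spry4 and Dusp6 followed Arc by p among the effectors. Spry4, which dampens receptor tyrosine kinase signals, stood at 5.50, 6.23 and 6.52 CPM in Tg and 12.9, 10.8 and 8.90 CPM in nTg (−0.83 ± 0.18). Dusp6, a phosphatase that removes phosphate from ERK, stood at 27.6, 26.3 and 31.2 CPM in Tg against 42.8, 42.6 and 38.1 CPM in nTg (−0.54 ± 0.12). Both had each Tg library below each control, and edgeR's adjusted p was 0.397 for both. Of the same families, Dusp5 (−0.53 ± 0.17) and Spry2 (0.11 ± 0.12) overlapped the controls. Dusp1 (−0.38 ± 0.13), Dusp4 (−0.41 ± 0.16), Btg2 (−0.49 ± 0.16), Sgk1 (−0.36 ± 0.12), Sik1 (−0.59 ± 0.20) and Gadd45b (−0.41 ± 0.17) were the other effectors wholly below the controls, chosen after their values were seen. Bdnf, the neurotrophin whose RNA is also induced by activity, stood at 47.2, 43.6 and 47.1 CPM in Tg and 44.6, 52.7 and 46.2 CPM in nTg, a difference of −0.06 ± 0.11 with overlapping groups. Homer1 (−0.02 ± 0.12) and Nptx2 (0.10 ± 0.20, −0.12 without nTg replicate 1) overlapped as well.

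**Figure D2:**
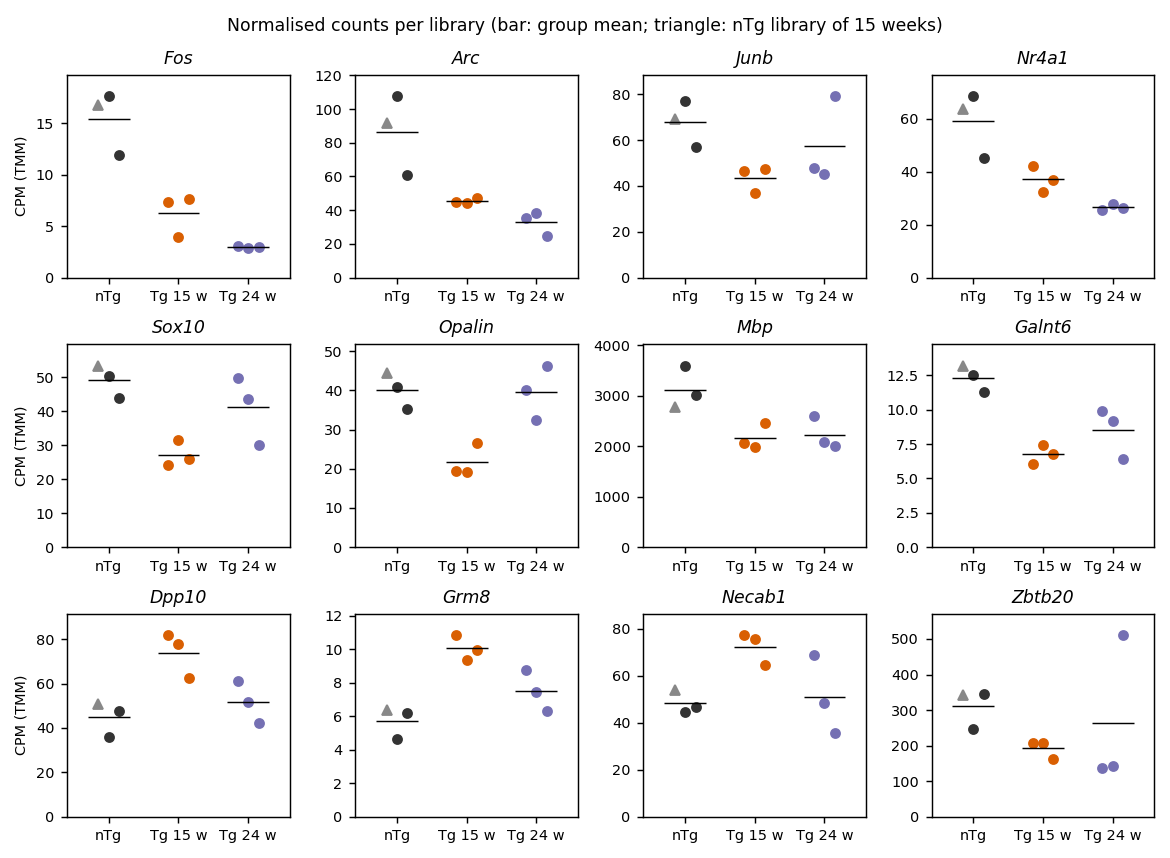
TMM-normalised CPM (vertical axes, from 0) of 12 genes in each library, grouped as nTg, Tg at 15 weeks and Tg at 24 weeks on the horizontal axis, with bars for group means and a triangle for the 15-week control. In Fos, Arc, Junb, Nr4a1, Sox10, Opalin, Mbp, Galnt6 and Zbtb20 the 3 orange points of Tg at 15 weeks lie below all 3 controls, and in Dpp10, Grm8 and Necab1 they lie above. For Fos the Tg libraries of 24 weeks lie lower still, at 3.11, 2.91 and 2.98 CPM.

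Myelin genes formed the second group with lower levels in Tg. Of 18 genes of myelin structure, 16 had a negative difference, 10 had an unadjusted p under 0.05, all lower, and 10 lay wholly below the controls, beside 50.7%, 3.54% and 6.01% over all genes. The median was −0.32, nearly the same against the 15-week control (−0.31) and without nTg replicate 1 (−0.33). Summed levels of the list were 5315, 5189.6 and 5991 CPM in the Tg libraries and 7607, 6576 and 7138 CPM in nTg.

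The window of Opalin, the myelin gene of smallest p, is printed because it holds the letters ACAAAG, a site of the SOX family to which Sox10 belongs, shown in capitals. It lies at chr19:41077064-41077363 on the minus strand (RefSeq, GRCm38.p6).
Opalin: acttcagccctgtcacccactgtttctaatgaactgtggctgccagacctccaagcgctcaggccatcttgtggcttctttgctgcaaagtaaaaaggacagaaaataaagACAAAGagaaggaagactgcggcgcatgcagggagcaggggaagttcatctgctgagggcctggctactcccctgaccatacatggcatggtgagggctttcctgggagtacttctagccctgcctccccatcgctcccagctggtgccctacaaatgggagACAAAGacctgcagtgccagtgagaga
ACAAAG or its reverse complement occurred in 6 of 15 myelin genes with a window (40%), 2 of 13 oligodendrocyte lineage genes (15.4%) and 1954 of 11859 genes tested (16.5%), with median GC contents of 55%, 61.3% and 60.3%.

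Opalin, a membrane protein of central myelin, stood at 19.6, 19.2 and 26.5 CPM in Tg and 40.9, 44.4 and 35.3 CPM in nTg (means 21.8 ± 4.10 and 40.2 ± 4.56 CPM, SD, n = 3 each). The groups did not overlap, and 2 of the Tg libraries had under 20 CPM where no control was below 35. Its difference was −0.88 ± 0.15 (edgeR adjusted p = 0.281), −1.02 against the 15-week control and −0.86 without nTg replicate 1. Opalin passed the threshold in 3 of 15 alternatives (DESeq2, voom, and edgeR without the filter on low counts) and not in the others. Mbp, myelin basic protein, stood at 2060.5, 1980.2 and 2458 CPM in Tg and 3591, 2769 and 3006 CPM in nTg, with a difference of −0.53 ± 0.15. Plekhb1 (−0.52 ± 0.13), the fatty acid hydroxylase Fa2h (−0.48 ± 0.13), the galactolipid enzyme Ugt8a (−0.41 ± 0.12), the aspartoacylase Aspa (−0.49 ± 0.15), Cnp (−0.43 ± 0.13), Ermn (−0.47 ± 0.17, −0.27 without nTg replicate 1) and the connexin Gjc3 (−0.21 ± 0.11) were also among the 10 without overlap, most of them named after their values were seen. Mog (−0.31 ± 0.13), Mag (−0.33 ± 0.16, −0.50 without nTg replicate 1) and Mobp (−0.19 ± 0.15, −0.03 without nTg replicate 1) overlapped the controls, and Mal had a positive difference (0.08 ± 0.13).

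Of 18 listed regulators of the oligodendrocyte lineage 17 were tested, since Nkx2-9 had at most 2 counts in any of the 6 libraries. Among the 17, 13 had a negative difference, 5 an unadjusted p under 0.05, all lower, and 6 lay wholly below the controls (50.7%, 3.54% and 6.01% over all genes), with a median of −0.13 (−0.17 against the 15-week control). Sox10, the transcription factor that drives oligodendrocyte maturation, shared the lowest adjusted p of the comparison (chromosome 15, 79154908 to 79165240, GRCm38). It stood at 24.2, 31.4 and 25.8 CPM in Tg and 50.4, 53.3 and 43.9 CPM in nTg (means 27.2 ± 3.76 and 49.2 ± 4.82 CPM, SD, n = 3 each). The highest Tg library lay 12 CPM or more below the lowest control, and the difference was −0.86 ± 0.13 (edgeR adjusted p = 0.246), −0.97 against the 15-week control and −0.83 without nTg replicate 1. Sox10 passed the threshold in 4 of 15 alternatives, the same settings as for Fos, and not in the others.

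Galnt6, a glycosyltransferase of mature oligodendrocytes, stood at 6.02, 7.46 and 6.79 CPM in Tg and 12.5, 13.2 and 11.3 CPM in nTg (−0.87 ± 0.16), without overlap. Nkx6-2, a homeodomain factor of myelinating cells, stood at 9.26, 8.75 and 6.61 CPM against 13.5, 13.5 and 13.9 CPM, where the 3 controls lay within 0.5 CPM of one another (−0.74 ± 0.17). Myrf, the master regulator of myelin genes, had a difference of −0.42 ± 0.11, Bcas1, which marks newly myelinating cells, −0.58 ± 0.15 (−0.37 without nTg replicate 1), and Nkx2-2 −0.54 ± 0.26, all without overlap. Markers of the precursor stage had smaller differences: Pdgfra had 0.11 ± 0.13 and Cspg4 −0.09 ± 0.18 (−0.26 without nTg replicate 1), both with overlapping groups. Lhfpl3 had −0.08 (−0.15 without nTg replicate 1). Pdgfra is also in the list of meninges and fibroblasts. Whether the stages of the lineage differ from one another was not tested. Olig2, which is active throughout the lineage, had a positive difference of 0.16 ± 0.14.

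**Figure D3:**
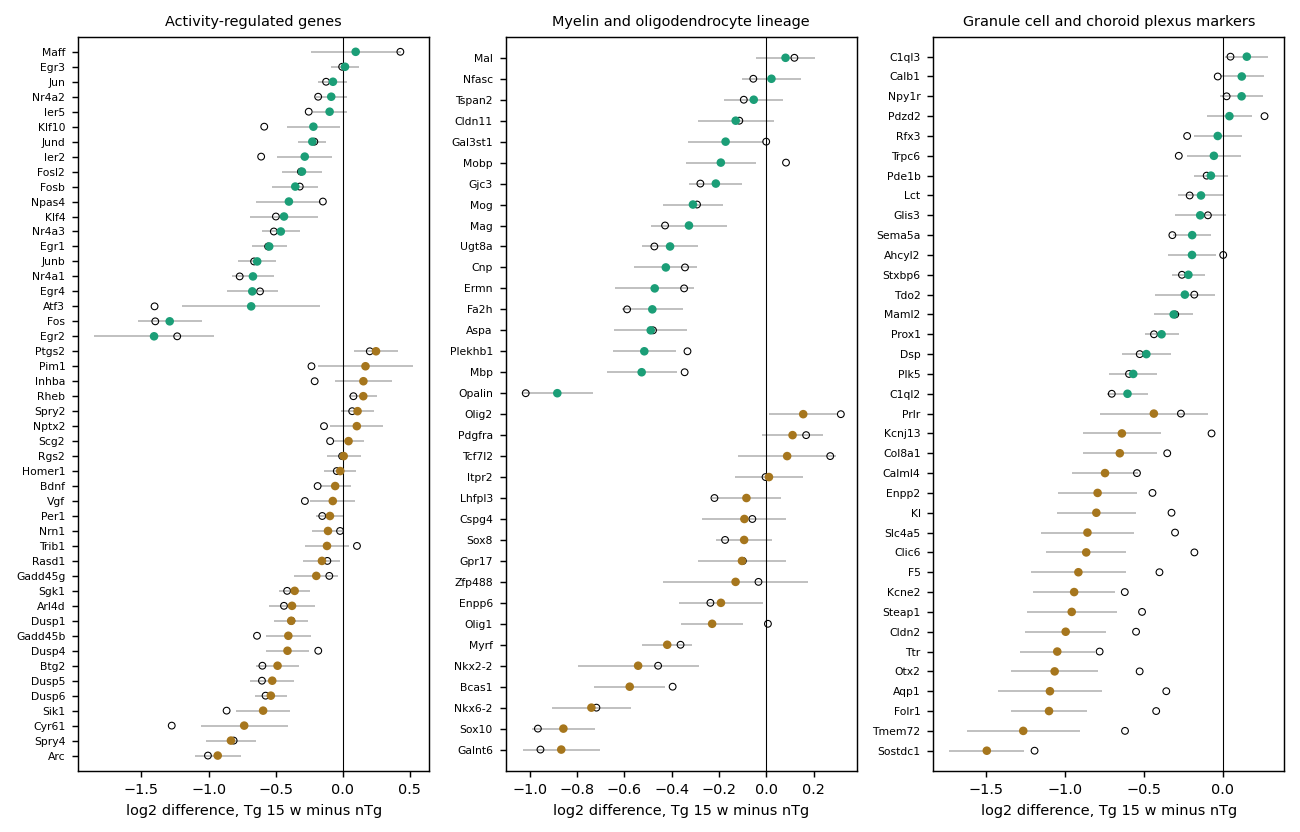
Log2 difference between Tg at 15 weeks and nTg (horizontal axes, filled points, with SE as bars) for members of the activity-regulated lists (green, transcription factors; brown, effectors), the myelin and oligodendrocyte lists (green, myelin; brown, lineage) and the granule cell and choroid plexus lists (green, granule cell; brown, choroid plexus). Open circles give the difference from the 15-week control alone. Most filled points lie left of 0, and in the choroid plexus list the open circles lie nearer to 0 than the filled ones, with list medians of −0.43 and −0.93.

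All 18 markers of dentate granule cells were tested. Of these 14 had a negative difference, 5 an unadjusted p under 0.05, all lower, and 5 lay wholly below the controls (50.7%, 3.54% and 6.01% over all genes), with a median of −0.17 (−0.22 against the 15-week control, −0.22 without nTg replicate 1). C1ql2, a synaptic organiser of mossy fibres, stood at 51.2, 68.6 and 59.4 CPM in Tg and 79.2, 97.9 and 95.5 CPM in nTg (−0.60 ± 0.13, edgeR adjusted p = 0.397), with no overlap. Prox1, the factor that specifies granule cells, stood at 60.1, 64.2 and 56.7 CPM against 74.6, 82.1 and 80.2 CPM (−0.39 ± 0.11), and its reads cannot be separated from an antisense transcript. Plk5 had a difference of −0.57 ± 0.15 and the desmosomal gene Dsp stood at 27.1, 22.4 and 31.8 CPM in Tg and 31.7, 39.3 and 42.9 CPM in nTg, with overlap. Calb1, the calcium buffer calbindin, whose loss from granule cells is known in older hAPP mice, stood at 185, 157 and 135 CPM in Tg and 127, 164 and 149 CPM in nTg, a difference of 0.12 ± 0.14.

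CA1 and CA3 markers divided evenly, 8 higher and 8 lower, with a median of 0.0039 that changed sign in 6 of 15 alternatives. An unadjusted p under 0.05 was found for 2, both higher, beside 2.02% over all genes. Wholly above the controls lay 2 markers and wholly below 3, beside 4.54% and 6.01% over all genes. Of the 2 at that p, 1 was Man1a (0.46 ± 0.14, 0.31 without nTg replicate 1), a mannosidase of the Golgi. Interneuron markers had 12 of 17 positive differences and a median of 0.15, but 0.0043 against the 15-week control. Vip, a peptide of disinhibitory interneurons, stood at 34.5, 33.7 and 19.2 CPM in Tg and 12.2, 21.5 and 19.8 CPM in nTg, overlapping (0.70 ± 0.23). Parvalbumin (Pvalb, 0.05 ± 0.18, −0.13 without nTg replicate 1) and somatostatin (Sst, −0.13 ± 0.11) had overlapping groups. The list of GABA-A receptor subunits also held genes that are not subunits, such as Slc12a5 and Gphn. It had 13 of 15 positive differences with a median of 0.09, which was −0.04 against the 15-week control. Gabrg1, at 30.6, 25.2 and 22.6 CPM in Tg and 18.4, 18.1 and 20.7 CPM in nTg, was the 1 of 15 members without overlap (0.45 ± 0.14). Over all genes 4.54% lay wholly above the controls. The list of AMPA, NMDA and kainate receptor subunits, which also held auxiliary genes such as Cacng8, divided 10 to 8 with a median of 0.01. Gria4 (0.31 ± 0.13) was the 1 of 18 with an unadjusted p under 0.05, beside 5.55% over all genes. Among 15 genes of neurogenesis, 9 were higher and 6 lower (median 0.11, 0.03 without nTg replicate 1), with doublecortin (Dcx) at 0.25 ± 0.19 (0.10 without nTg replicate 1) and Sox4 at −0.59 ± 0.21.

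Markers of tissue next to the hippocampus differed between the groups as well. All 18 choroid plexus markers had a negative difference, 17 of them at an unadjusted p under 0.05, and 13 lay wholly below the controls (50.7%, 3.54% and 6.01% over all genes), with none of the 18 at 0 in any group. Their summed level was 5182, 4604 and 2420.2 CPM in Tg and 9125, 6567 and 8439 CPM in nTg, and 2464 to 8395 CPM across the Tg libraries of 24 weeks. The list median was −0.93, but −0.43 against the 15-week control, −0.59 without nTg replicate 1, the highest library, and −0.69 without Tg replicate 3, the lowest. Sostdc1, a secreted BMP and Wnt antagonist, stood at 11.2, 13.3 and 6.61 CPM in Tg and 37.9, 23.7 and 25.8 CPM in nTg and shared the lowest adjusted p with Sox10 (−1.50 ± 0.24, edgeR adjusted p = 0.246). Ttr, the thyroid hormone carrier transthyretin, stood at 3716, 3140.4 and 1703 CPM in Tg against 6334, 4920.2 and 6457 CPM in nTg (−1.05 ± 0.24), and the folate receptor Folr1 at 28.6, 27.5 and 18.0 CPM against 70.4, 33.2 and 55.4 CPM (−1.10 ± 0.24). Ependymal markers had 8 of 9 tested with a negative difference and a median of −0.46, which was −0.07 against the 15-week control. Whether the amount of choroid plexus in a library bears on the neuronal and myelin genes was not tested.

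Neocortical markers had higher levels in Tg. Of 14, 11 had a positive difference, 4 an unadjusted p under 0.05 and 5 lay wholly above the controls, beside 49.3%, 2.02% and 4.54% over all genes, with a median of 0.19 (0.21 against the 15-week control). Their summed level was 379, 366 and 350.3 CPM in Tg and 326, 346 and 322 CPM in nTg, and none was at 0. Cplx3, a complexin of subplate neurons, stood at 12.8, 12 and 10.8 CPM in Tg and 8.01, 5.79 and 7.34 CPM in nTg (0.76 ± 0.17, edgeR adjusted p = 0.412). Ctgf, another subplate marker, had 0.67 ± 0.19 and Hs3st2 0.41 ± 0.15, both without overlap. Thalamic and habenular markers had 9 of 12 positive differences (median 0.15) and striatal markers 6 of 10 (0.05). The part of these tissues in the other results was not tested.

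**Figure D4:**
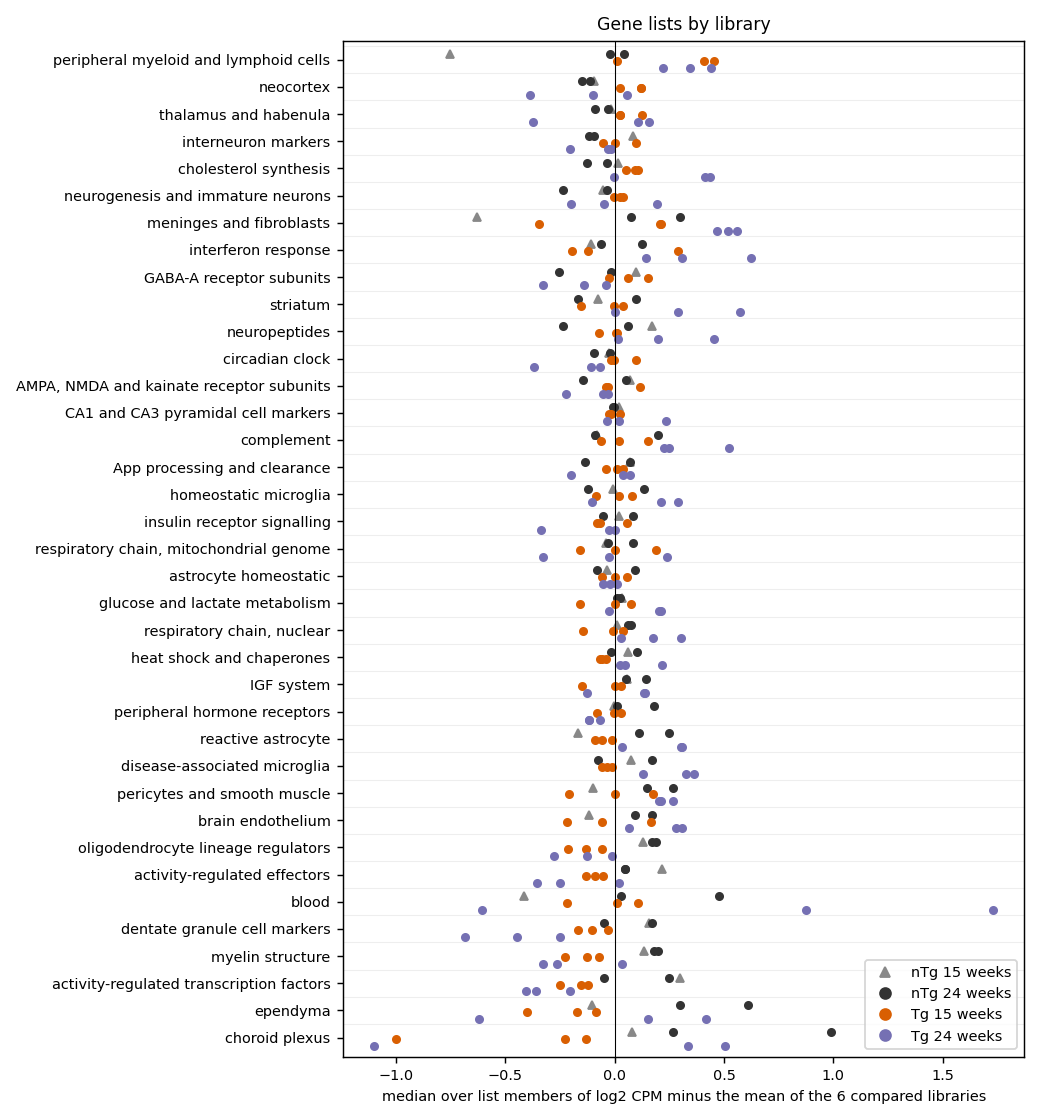
For each of 37 gene lists and each library, the median over list members of log2 CPM minus its mean over the 6 compared libraries (horizontal axis); triangles mark the 15-week control, black points the 24-week controls, orange points Tg at 15 weeks and violet points Tg at 24 weeks. Lists are ordered by their difference between Tg at 15 weeks and nTg. In both activity-regulated lists, myelin and oligodendrocyte regulators all 3 orange points lie left of all controls, and in the choroid plexus list they reach −1.0 while nTg replicate 1 lies at 0.99.

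The genes of smallest p with higher levels in Tg did not belong to 1 listed group. Dpp10, an auxiliary subunit of A-type potassium channels, stood at 81.7, 77.8 and 62.4 CPM in Tg and 35.9, 50.9 and 47.8 CPM in nTg (0.72 ± 0.15). Necab1, a neuronal calcium-binding protein, stood at 77.2, 75.7 and 64.5 CPM against 44.6, 53.8 and 46.9 CPM (0.58 ± 0.12). Both were without overlap, with an adjusted p of 0.397.

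Grm8, a presynaptic metabotropic glutamate receptor, stood at 10.8, 9.34 and 9.96 CPM in Tg and 4.66, 6.34 and 6.16 CPM in nTg (0.81 ± 0.18). Camk2d, the delta subunit of calcium/calmodulin kinase II, stood at 58.1, 52.9 and 55.5 CPM in Tg and 42.3, 37.9 and 40.8 CPM in nTg (0.46 ± 0.11). Prex2, an activator of Rac, had a difference of 0.50 ± 0.13, and the secreted matricellular protein Nov, also known as CCN3, had 0.52 ± 0.12 at 204, 194 and 183 CPM in Tg. Vegfd (1.04 ± 0.23), Fmo2 (1.30 ± 0.30), Arhgap36 (1.56 ± 0.38) and Tmprss6 (1.26 ± 0.33) stood at low levels, with no library above 10 CPM in either group. All these genes were without overlap, and their adjusted p lay between 0.397 and 0.457.

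Among the 12 genes of smallest p with lower levels, 4 belonged to no list. Rdh5, a retinol dehydrogenase, stood at 5.38, 8.64 and 5.93 CPM in Tg and 15.6, 10.7 and 14.6 CPM in nTg, with a difference of −1.03 ± 0.21 and −0.68 against the 15-week control. Slc9a3r1, a scaffold protein beneath the plasma membrane also known as NHERF1, stood at 43.7, 44.2 and 40.7 CPM in Tg and 59.8, 59.9 and 65.5 CPM in nTg (−0.53 ± 0.11). Its values within each group lay within 6 CPM. Rhog, a small GTPase, stood at 27.1, 25.7 and 24.0 CPM against 39.5, 34.7 and 39.6 CPM (−0.57 ± 0.12), and Sept4, a septin, at 111, 98.6 and 116 CPM against 163, 152 and 150.1 CPM (−0.51 ± 0.11). Each of the 4 had an adjusted p of 0.397.

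Astrocyte genes, which the title of the series names, showed no shared direction. Homeostatic astrocyte genes divided into 10 higher and 12 lower, with a median of −0.04 (0.08 against the 15-week control). Slc1a2, the main glutamate transporter, stood at 1918, 2108 and 1762 CPM in Tg and 1847, 2024 and 2089 CPM in nTg (−0.04 ± 0.13). An unadjusted p under 0.05, in each case with lower levels in Tg, was found for 3 of 22 homeostatic genes (3.54% over all genes). These were the glycogen regulator Ppp1r3c (−0.67 ± 0.23, −0.28 without nTg replicate 1), Sox9 (−0.36 ± 0.16) and the amino acid transporter Slc7a10 (−0.29 ± 0.12). Of 24 reactive astrocyte genes 20 were tested, and 9 were higher and 11 lower, with a median of −0.09 that was 0.26 against the 15-week control and 0.06 without nTg replicate 1. Gfap, the intermediate filament that rises in reactive astrocytes, stood at 287, 327 and 302 CPM in Tg and 454, 289 and 258 CPM in nTg, where replicate 1 was highest (−0.13 ± 0.18, 0.17 without it). Vim (−0.06 ± 0.17, 0.18 without nTg replicate 1) and Serpina3n (0.09 ± 0.15, −0.05 without it) had overlapping groups. Lcn2, Cxcl10, Tgm1 and Ptx3 were under the filter, with at most 14 counts in any of the 6 libraries.

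Microglial, complement and interferon genes showed no shared direction either. Of the list of peripheral myeloid and lymphoid cells only myeloid markers were tested, and most of these were higher in Tg. Homeostatic microglia genes had 6 higher and 12 lower, 0 at an unadjusted p under 0.05, with a median of −0.02. Disease-associated microglia genes had 7 higher and 11 lower of 18 tested, and 4 at an unadjusted p under 0.05, all lower (3.54% over all genes), which were Cd63 (−0.47 ± 0.13), Cd9 (−0.36 ± 0.12), Lgals3 (−0.93 ± 0.35) and Apoe (−0.35 ± 0.14). Apoe, the main lipid carrier of the brain, stood at 1410.4, 1354 and 1497 CPM in Tg and 1574, 1797 and 2056 CPM in nTg, without overlap. Cst7, Clec7a, Itgax and Ccl4 were under the filter, with at most 11 counts in any of the 6 libraries. Complement genes had 6 higher and 9 lower of 15 tested, 0 at an unadjusted p under 0.05, with a median of −0.0093. C4b stood at 38.1, 38.8 and 34.3 CPM in Tg and 32.5, 33.9 and 37.8 CPM in nTg (0.09 ± 0.12). Interferon response genes had 13 higher and 10 lower (0.09), with Ifi27 at −0.47 ± 0.17 (−0.24 without nTg replicate 1). Of 12 markers of peripheral myeloid and lymphoid cells only 6 were tested, at mean levels of 0.426 to 3.75 CPM. The lymphoid markers Cd3e and Cd79a were under the filter. Of the 6, 5 had a positive difference and Ccr2 a negative one (−0.43). Without overlap were 3 (4.54% over all genes): Lyve1 (0.98 ± 0.35), Cd163 (0.76 ± 0.27) and Mrc1 (0.58 ± 0.25), which mark macrophages at vessels and meninges. The median of the 6 tested was 0.61 and 1.08 against the 15-week control. That control had the lowest summed level of the list, 6.79 CPM against 11.8 to 16.8 CPM in Tg.

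Genes of insulin signalling, also named in the title, had differences near 0. Of 31 listed genes 30 were tested, 14 higher and 16 lower, with a median of −0.03 (−0.02 against the 15-week control, 0.06 without nTg replicate 1). At an unadjusted p under 0.05 there was 1 gene, beside 5.55% over all genes. That gene was Foxo6, a forkhead factor of hippocampal neurons, at 16.8, 19.5 and 15.3 CPM in Tg and 28.4, 27.6 and 22.4 CPM in nTg, without overlap (−0.61 ± 0.15, edgeR adjusted p = 0.412). Insr, the insulin receptor, stood at 46.7, 49.9 and 42.0 CPM in Tg and 41.3, 50.4 and 45.4 CPM in nTg, a difference of 0.01 ± 0.12 that was −0.045 without nTg replicate 1. Irs2, the docking protein of the receptor, stood at 61.8, 60.1 and 57.2 CPM in Tg and 66.5, 70.6 and 63.1 CPM in nTg (−0.16 ± 0.11), without overlap but by a small amount, and Pik3r2 had −0.19 ± 0.12 and Grb10 0.17 ± 0.12, which completed the members without overlap. Irs1 (−0.09 ± 0.23, 0.13 without nTg replicate 1) and Akt1 (−0.01 ± 0.14, 0.13 without nTg replicate 1) overlapped. In the IGF system 4 were higher and 8 lower of 12 tested (−0.08). An unadjusted p under 0.05 was found for 2, both lower (3.54% over all genes): the binding proteins Igfbp2 (−0.67 ± 0.18) and Igfbp7 (−0.43 ± 0.14). Igf2 stood at 2.72, 3.33 and 0.860 CPM in Tg and 9.0, 1.66 and 4.54 CPM in nTg, and its difference of −1.14 ± 0.53 was 0.46 against the 15-week control and −0.42 without nTg replicate 1.

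Receptors for peripheral hormones had 8 higher and 15 lower of 23 tested, 0 at an unadjusted p under 0.05, with a median of −0.09 (0.0025 without nTg replicate 1). The leptin receptor Lepr had a difference of −0.53 ± 0.34 (−0.33 without nTg replicate 1) and the thyroid hormone receptor Thrb of 0.26 ± 0.13. Genes of glucose and lactate metabolism had 9 higher and 20 lower of 29, 0 at an unadjusted p under 0.05 (−0.05), and the glucose transporter Slc2a1 stood at 90.7, 50.1 and 84.0 CPM in Tg and 51.4, 59.2 and 86.2 CPM in nTg (0.19 ± 0.22). Nuclear-encoded genes of the respiratory chain had 25 of 33 negative differences of small size (median −0.07, −0.02 against the 15-week control), and those of the mitochondrial genome divided 6 to 7 (−0.04).

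Most cholesterol synthesis genes had small positive differences, none of them past the adjusted threshold. Of 24 tested, 19 had a positive difference, 5 an unadjusted p under 0.05, all higher, and 6 lay wholly above the controls, where all genes gave 49.3%, 2.02% and 4.54%, with a median of 0.12 (0.06 against the 15-week control and 0.07 without nTg replicate 3). Sqle, squalene epoxidase, stood at 67.9, 64.7 and 64.4 CPM in Tg and 55.0, 56.1 and 48.6 CPM in nTg (0.30 ± 0.11), and Hmgcs1 had 0.28 ± 0.12, Fdft1 0.25 ± 0.10 and Stard4 0.41 ± 0.17. Srebf2, the factor that controls these enzymes, overlapped (0.12 ± 0.11).

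Genes that process or clear App divided 11 to 12 (median −0.01). Adam10, the α-secretase, stood at 85.9, 87.4 and 74.6 CPM in Tg and 61.5, 74.3 and 69.5 CPM in nTg (0.27 ± 0.12, unadjusted p = 0.0378) and was the 1 member of this list under 0.05. Bace1, the β-secretase, had a difference of −0.06 ± 0.11, the insulin-degrading enzyme Ide −0.17 ± 0.12 and neprilysin, Mme, 0.46 ± 0.23. Heat shock genes had 17 of 23 negative differences with a median of −0.08, and Cryab, a small chaperone also made by oligodendrocytes, stood at 88.0, 78.0 and 88.2 CPM in Tg and 129, 112 and 111 CPM in nTg, without overlap (−0.47 ± 0.11, edgeR adjusted p = 0.412). Clock genes divided 10 to 9 (0.03). Wholly above the controls lay 3 of 19, beside 4.54% over all genes, among them Npas2 (0.32 ± 0.13) and Bhlhe41 (0.24 ± 0.12). Neuropeptide genes divided 10 to 9 (0.04, −0.10 without nTg replicate 1), and Npy, which is known to rise in granule cells after seizures, stood at 55.7, 57.8 and 60.4 CPM in Tg and 54.4, 85.0 and 77.0 CPM in nTg (−0.32 ± 0.15).

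Set directly against Tg at 24 weeks, 6 of 17457 genes passed the threshold (0.0344%), 5 higher at 24 weeks (0.0286%) and 1 lower (0.00573%), and 2645 reached an unadjusted p under 0.05. The 15-week libraries are shared by both contrasts, and age and batch cannot be told apart. Total counts of the Tg libraries of 24 weeks were 20201207, 19277883 and 12733452, with replicate 3 the lowest of the series. Penk, the precursor of enkephalins, stood at 24.9, 22.3 and 29.4 CPM at 15 weeks, overlapping the controls at 20.6, 27.7 and 25.1 CPM, and at 109, 108 and 168 CPM at 24 weeks, a difference of 2.34 ± 0.20 (adjusted p = 0.000848). The complement gene C4b rose to 60.9, 71.0 and 64.4 CPM at 24 weeks (0.84 ± 0.12, adjusted p = 0.0489), from 34.3 to 38.8 CPM at 15 weeks. Dsp fell to 8.33, 9.84 and 7.97 CPM (−1.62 ± 0.18, adjusted p = 0.00644). The p53 target Rprm had levels of 33.3, 29.3 and 27.4 CPM at 15 weeks, 17.9, 22.4 and 24.3 CPM in nTg and 63.1, 70.8 and 87.9 CPM at 24 weeks (1.32 ± 0.16, adjusted p = 0.0164), and Rasl10a (1.05 ± 0.15) and Tmc6 (1.62 ± 0.24) were the others higher at 24 weeks. Penk kept its call in every one of the 12 alternatives run. Without Tg replicate 1 or replicate 3 of 15 weeks Penk was the 1 gene called, and without replicate 2 Penk and Dsp were.

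The genes that led the 15-week comparison did not pass in this contrast. Fos stood at 3.11, 2.91 and 2.98 CPM at 24 weeks (−1.06 ± 0.27 relative to 15 weeks, adjusted p = 0.215) and Arc at 35.4, 38.5 and 24.6 CPM (−0.45 ± 0.21, adjusted p = 0.329). Opalin stood at 40.2, 32.4 and 46.2 CPM at 24 weeks, around the controls at 40.9, 44.4 and 35.3 CPM, and 0.88 ± 0.18 above 15 weeks (adjusted p = 0.16), and Sox10 stood at 49.8, 43.7 and 30 CPM (0.62 ± 0.18, adjusted p = 0.22). C1ql2 stood at 136, 159 and 94.0 CPM, above 15 weeks by 1.13 ± 0.19 (adjusted p = 0.0799). Gfap stood at 482, 629 and 731 CPM at 24 weeks against 287, 327 and 302 CPM at 15 weeks (1.02 ± 0.22, adjusted p = 0.169). List medians between 24 and 15 weeks were 0.47 for complement, 0.46 for reactive astrocytes and 0.39 for the interferon response, and −0.22 and −0.40 for activity-regulated transcription factors and granule cell markers, beside 0.02 over all genes. Myelin structure stood at 0.03 in this contrast. Markers of other tissue moved as well: blood (1.01), choroid plexus (0.41), ependyma (0.36), meninges and fibroblasts (0.34), brain endothelium (0.33) and pericytes (0.25) upward. Neocortex (−0.10), thalamus and habenula (−0.16) and striatum (−0.01) had negative medians. The part of such tissue in the other lists was not tested.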

How the data were processed

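Hippocampal RNA was sequenced in 9 libraries; per the labels' protocols, RNA was extracted with the RareRNA kit and libraries were made with the KAPA mRNA HyperPrep kit. The authors deposited counts, whole numbers of reads per gene that were not normalized, and these were tested as deposited. The TPM values deposited by the authors were used for 1 alternative, and FPKM values were not used. Tools named, without order or settings, in the submitters' processing notes are HISAT2 2.1.0, featureCounts 2.0.0, Trimmomatic 0.38, CASAVA and DESeq2 1.26.0, with GRCm38 as the build. Annotation release and strand setting were not given in the sources used here, so reads of genes that overlap on opposite strands cannot be told apart. Coordinates come from GENCODE M21 (GRCm38, 1-based). Of 55536 gene identifiers 2339 had no symbol (1.88% of counts) and 92 symbols were shared by more than 1 identifier; such genes were not named. Some other genes, though counted in their lists, are not reported here.

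The 6 libraries were fitted by group with edgeR 4.0.16 in R 4.3.3 (quasi-likelihood test, TMM, filterByExpr, two-sided, Benjamini-Hochberg adjustment over 16803 genes, threshold 0.05). Tg at 24 weeks was set against Tg at 15 weeks in a fit of all 9 libraries (17457 genes). Differences are log2 fold changes with SE; CPM are TMM-normalised. Library scores of lists use log2 CPM with a prior count of 2. Against the 15-week control, 1 library, the spread came from the other groups. Alternatives were DESeq2 size factors (RLE), DESeq2 1.42.0, limma 3.58.1 voom with quality weights, limma on log2(TPM + 0.1), no filter, each library left out, a replicate block, all 9 libraries, and controls of 1 age. Libraries differed by 9.11 to 80.7 chi-square per degree of freedom (genes with 20 counts or more), and no pair was identical. On simulated counts of the comparison of 6 libraries (16803 genes) there were 0 calls of wrong sign and 7 false calls.

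Named genes were, among genes with a unique symbol and a mean of at least 1 CPM, with ribosomal protein genes, pseudogenes and predicted genes left out, the 12 of smallest p in each direction, up to 3 of smallest p from each list, App and Zbtb20 and the sex-linked genes as checks, and 4 per direction between the 2 ages of Tg. Genes outside this rule (the further members without overlap, and those such as Gfap, Insr, Egr3, Bdnf, Mal, Calb1, Slc1a2 or Apoe given to show members that did or did not differ) were chosen after their values were seen. Lists held 682 different genes, 648 of them tested. The samples, lists and tests were chosen with earlier results of these data known. Promoter windows come from RefSeq (GRCm38.p6).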

Additional observations from a re-analysis of the deposited data

Results flagged for a closer look

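For 6 genes the level differed between the 2 ages of Tg by edgeR's test over all 9 libraries, where age and batch cannot be told apart. The log2 difference between 24 and 15 weeks was 2.34 for Penk, 1.32 for Rprm, −1.62 for Dsp, 1.05 for Rasl10a, 1.62 for Tmc6 and 0.84 for C4b. Penk stood between 22.3 and 29.4 CPM at 15 weeks and between 108 and 168 CPM at 24 weeks. Dsp stood between 22.4 and 31.8 CPM at 15 weeks and between 7.97 and 9.84 CPM at 24 weeks. The calls of Rprm, Rasl10a, Tmc6 and C4b were lost without any 1 of the 3 libraries of 15 weeks, and that of Dsp without replicate 1 or 3 of 15 weeks. On TPM the calls of Dsp, Rasl10a, Tmc6 and C4b were lost, with the replicate block those of Rasl10a and C4b, and with DESeq2 size factors that of C4b. Without replicate 1 of 24 weeks the calls of Tmc6 and C4b were lost, and without replicate 2 of 24 weeks those of Rasl10a and C4b. Rasl10a overlaps Gas2l1 on the other strand.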

How the results depend on the processing

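Between Tg at 15 weeks and nTg, 0 genes passed the threshold with edgeR and with DESeq2 size factors, on TPM, with all 9 libraries (575 at an unadjusted p under 0.05), against the 15-week control and against the 24-week controls, which is the same fit as leaving out nTg replicate 2. The count was 23 with DESeq2, 9 with voom and 152 without the filter on low counts, of which 7 were not among the genes of the filtered test. DESeq2 and voom shared 8 genes, and the unfiltered test held all 23 and all 9; the cause was not tested. Leaving out 1 library gave 0 to 5 genes: Zbtb20 without nTg replicate 1, and Arc, Fos, Sox10, Sostdc1 and Etnppl without nTg replicate 3. Same-numbered samples had correlated deviations of −0.251, 0.12 and −0.012, and the labels give no shared litter or day, so the numbers do not pair the samples; with the replicate block 0 genes passed between Tg at 15 weeks and nTg and 4 between the ages. Between the ages 6 genes passed, against 5 with DESeq2 size factors, 262 with DESeq2, 102 with voom, 2 on TPM, 701 without the filter and 1 to 14 with a library left out (14 without Tg replicate 3 of 24 weeks, 1 without replicate 1 or 3 and 2 without replicate 2 of 15 weeks). Of 2415 values of 161 named genes under the 15 alternatives, 2309 kept direction and side of the threshold, 80 passed it and 26 changed sign. The sign changed against the 15-week control for Ifitm3 (0.11), Igf2 (0.46), Cldn5 (0.15), Ndufb8 (0.0045), mt-Co2 (−0.23), Rgs5 (0.0022), App (−0.015), Hba-a1 (0.25), Alas2 (0.35), Hba-a2 (0.15), Gfap (0.088) and Insr (−0.12). With voom it changed for Hba-a1 (0.067), Alas2 (0.12), Hba-a2 (0.0035), Gfap (0.060) and Insr (−0.036), and on TPM for Insr (−0.0026). With a library left out it changed in 6 genes, whose differences then ranged as follows: Rgs5 −0.37 to 0.015, Gfap −0.28 to 0.17, Insr −0.045 to 0.091, Hba-a1 −0.33 to 0.067, Alas2 −0.54 to 0.065 and Hba-a2 −0.46 to 0.080. List medians changed sign in some alternative for 22 of 37 lists, and in none for both activity-regulated lists, myelin (−0.35 to −0.25), oligodendrocyte regulators (−0.21 to −0.12), granule cell markers (−0.22 to −0.13), choroid plexus (−1.12 to −0.43), neocortex (0.16 to 0.25) and cholesterol synthesis (0.06 to 0.15). With 3 libraries a group the typical standard error was 0.163. Log2 differences as large as −1.29 (Fos) and −1.5 (Sostdc1) did not pass the adjusted threshold in edgeR's test. Recovery of changes smaller than 1 was not simulated.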

Other observations

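Some list members under the filter on low counts still differed between single libraries. Isl1, a factor of striatal and hypothalamic neurons, had 23 counts in Tg replicate 3 and 0 to 4 in the other 5 compared libraries. Irs4, an insulin receptor substrate best known from the hypothalamus, had 11, 7 and 24 counts in the Tg libraries and 2, 3 and 3 counts in nTg, the counts of Tg replicate 3 again being highest, and 41 counts in Tg replicate 2 of 24 weeks. Eomes, a factor of intermediate progenitors, had 32 counts in Tg replicate 3, 27 in nTg replicate 3 and at most 8 in the other 4.

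Among the 6 compared libraries, markers of blood stood lowest in the 15-week control, with a summed level of 209, 170.2 and 317 CPM in nTg and 280.2, 229.6 and 203 CPM in Tg, and with 144, 407 and 778 CPM in Tg at 24 weeks. Markers of meninges and fibroblasts had summed levels of 1278, 1272 and 870.2 CPM in Tg and 949, 732 and 1681 CPM in nTg, with the 15-week control again lowest, and their list median was 0.11 over all controls and 0.64 against that library. The collagen-binding proteoglycan Dcn, one of these markers, stood at 129, 129.6 and 92.1 CPM in Tg and 81.6, 81.0 and 84.7 CPM in nTg, without overlap (0.50 ± 0.14, edgeR adjusted p = 0.477). Brain endothelium (−0.12 and 0.14 against the 15-week control) and pericytes (−0.11 and 0.12) changed sign between the controls in the same way.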
